A study of Mus musculus with 78 samples.

Results

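Transcripts of 8 genes stood higher in mouse embryonic stem cells after loss of the transcription factor ZFP143: 1700034P13Rik, Gm13778, Ttc41, Trim66, Ubap1l, Adtrp, B4galnt2 and Dyrk4, out of 55401 genes in the count tables. They were selected on their log2 changes between depleted and control cells, where they stood among the greatest increases, so those increases are a description and carry no test. By the nearest ZFP143 peak they fell into 4 genes with a peak at the promoter, 1700034P13Rik, Gm13778, Ttc41 and Adtrp, and 4 genes without one, Trim66, Ubap1l, B4galnt2 and Dyrk4.

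All cells were E14TG2a mouse embryonic stem cells (mESCs) with ZFP143 fused at its C terminus to an FKBP degron, an HA tag and, after a self-cleaving peptide, GFP. The cells were homozygous clones grown from single cells, and no library came from cells without the fusion. Control cells received the solvent DMSO, and depleted cells 500 nM dTAG-V1, a small molecule that directs the fusion protein to an E3 ubiquitin ligase. Transient transcriptome sequencing (TT-seq), which captures RNA labelled for 10 min with 2 mM 4-thiouridine and so reports transcription of the moment, covered DMSO and dTAG for 2, 6 or 24 h. RNA-seq of stable mRNA covered DMSO and dTAG for 24, 48 or 72 h. A further RNA-seq table held cells kept for 24 h in DMSO or dTAG and the same after a further 24 h in retinoic acid (RA) with the treatment continued. The medium was changed together with the addition of RA, and the effect of RA cannot be told apart from that of the medium or of the further day. Depleted cells had 48 h of dTAG after RA and 24 h before it, so in them a change after RA cannot be told apart from one with longer depletion either. Every group had 2 libraries, described as biological replicates.

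ZFP143, the mouse form of human ZNF143, is a zinc finger protein that sits mostly at promoters, where it recognises long motifs known as SBS1 and SBS2, and it is known chiefly as an activator. Many of its promoters are bidirectional, with a protein-coding gene on one strand and a second transcript leaving on the other. These 8 genes differ in what they encode. 1700034P13Rik and Gm13778 are non-coding genes. Ttc41 encodes a protein with tetratricopeptide repeats, which mediate contacts between proteins, and Adtrp a lipid hydrolase also known as a regulator of tissue factor pathway inhibitor. Trim66 encodes a chromatin reader related to the TIF1 corepressors, Ubap1l a relative of the ESCRT-I subunit UBAP1, B4galnt2 a glycosyltransferase that adds N-acetylgalactosamine to form the Sda antigen, and Dyrk4 a kinase of the DYRK family. Trim66, Ttc41 and Dyrk4 are best known from testis.

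Total counts ran from 9721568 to 16532077 per TT-seq library, from 10261851 to 15316700 in the RNA-seq time course and from 13890761 to 27089033 in the RA table. The degron removes protein, so the transcript of Zfp143 cannot check the labels. It stood higher in depleted cells, at 72.9 ± 2.25 CPM (counts per 1e6 counts of tested genes; mean ± SD, n = 2) in DMSO and 163 ± 1.78 CPM after 2 h in TT-seq, which is 1.17 higher on the log2 scale (adjusted p 0.00104, edgeR quasi-likelihood test). The list held no ZFP143 peak at the promoter of Zfp143. The stem cell markers Pou5f1, Nanog, Sox2, Zfp42, Esrrb, Klf4 and Tfcp2l1 were all present, with a summed level of 5380 to 5496 CPM in the DMSO libraries of the time course.

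The ZFP143 list held 3189 peaks, called once and without replicates, and each peak carries its fold enrichment over input. For 3 of the 4 bound genes, Gm13778, Ttc41 and Adtrp, the windows below show 201 bases centred on the peak summit, on the strand of the gene, in build mm10. They are shown because these are the sites that set the 2 kinds of gene apart. Capitals mark matches to ACTACA, a stretch of the SBS2 motif, searched on both strands. The windows lie at chr2:91053840-91054040 (minus strand), chr10:86705957-86706157 (plus) and chr13:41847888-41848088 (minus).
Gm13778: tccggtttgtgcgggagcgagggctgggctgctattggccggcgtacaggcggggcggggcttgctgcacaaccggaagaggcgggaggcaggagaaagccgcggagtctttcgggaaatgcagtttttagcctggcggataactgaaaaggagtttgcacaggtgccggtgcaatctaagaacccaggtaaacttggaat
Ttc41: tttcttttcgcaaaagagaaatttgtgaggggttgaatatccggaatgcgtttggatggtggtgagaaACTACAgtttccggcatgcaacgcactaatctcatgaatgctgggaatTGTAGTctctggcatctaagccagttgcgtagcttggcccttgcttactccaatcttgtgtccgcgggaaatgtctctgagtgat
Adtrp: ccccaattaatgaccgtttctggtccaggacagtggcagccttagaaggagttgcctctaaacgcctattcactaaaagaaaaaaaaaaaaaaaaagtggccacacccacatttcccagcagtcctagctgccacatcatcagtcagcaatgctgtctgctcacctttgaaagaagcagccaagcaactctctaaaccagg
The window of Ttc41 held ACTACA 2 times, once on each strand, and the windows of Gm13778 and Adtrp did not hold these letters. Of all 3189 peaks, 37.8% held ACTACA in a window of 201 bases, against 10.46% of 31731 promoters of 300 bases.

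The peaks of the bound genes differed in strength and in place. The peak of 1700034P13Rik was 61.3-fold enriched, above 85.6% of all peaks. 1700034P13Rik lies at chr1:9747648-9791924 on the plus strand and is annotated as an antisense gene. The peak of Ttc41 (chr10:86705811-86776844, plus strand) was 43.9-fold enriched, with its summit 213 bp inside the nearest annotated transcript. The peak of Gm13778 (chr2:91044092-91053933, minus strand) was 33.9-fold enriched, with its summit 7 bp upstream of the start. The peak of Adtrp (chr13:41763148-41847684, minus strand) was the weakest, at 14.6-fold and above 40.1% of all peaks, with its summit 304 bp upstream. None of these peaks overlapped a CTCF peak, as did 6.9% of all ZFP143 peaks.

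The other 4 genes had their nearest peak far away. The distance from the nearest start to the summit was 198.3 kb for Trim66 (chr7:109449006-109508134, minus strand), 67.7 kb for Ubap1l (chr9:65361041-65380377, plus strand), 57.4 kb for B4galnt2 (chr11:95865943-95914891, minus strand) and 36.3 kb for Dyrk4 (chr6:126876020-126921839, minus strand). Over the 17795 tested genes with a peak on their chromosome the median distance was 103 kb, so Trim66 lay farther from a peak than the median gene and the other 3 nearer. The peak nearest to Dyrk4 was at the promoter of Ndufa9, a subunit of respiratory complex I. Their nearest CTCF peaks were 11.6 to 20.4 kb away. The promoters of Trim66 and B4galnt2, from 250 bases upstream to 50 bases downstream of the outer gene start, are printed as the unbound promoters with the fewest and the most CpG dinucleotides, at chr7:109508085-109508384 and chr11:95914842-95915141, both on the minus strand.
Trim66: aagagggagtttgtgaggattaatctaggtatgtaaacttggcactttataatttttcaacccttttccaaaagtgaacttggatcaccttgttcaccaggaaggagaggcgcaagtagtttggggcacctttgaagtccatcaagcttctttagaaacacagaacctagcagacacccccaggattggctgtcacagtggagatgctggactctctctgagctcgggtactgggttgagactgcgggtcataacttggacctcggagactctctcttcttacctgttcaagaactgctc
B4galnt2: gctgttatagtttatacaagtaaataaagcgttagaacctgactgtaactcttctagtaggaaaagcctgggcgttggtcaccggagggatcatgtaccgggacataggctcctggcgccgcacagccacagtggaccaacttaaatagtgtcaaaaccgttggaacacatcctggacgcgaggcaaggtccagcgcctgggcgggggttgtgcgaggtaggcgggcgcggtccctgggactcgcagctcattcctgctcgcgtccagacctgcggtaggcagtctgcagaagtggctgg
The promoter of Trim66 held 4 CpG and 47.0% G and C, and that of B4galnt2 19 CpG and 57.0%. Among the bound genes, Gm13778 had 30 CpG and 63.0%, Ttc41 23 CpG and 62.3%, 1700034P13Rik 15 CpG and 54.0%, and Adtrp 4 CpG and 55.3%. The median of all promoters was 52.3% G and C. Bound and unbound genes overlapped in CpG content, since Adtrp held as few as Trim66.

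The plot of TT-seq levels by library shows when transcription of each gene was higher. 1700034P13Rik was at its plateau from the first time point on. It had 2.28 and 3.81 CPM in the DMSO libraries, 18.9 and 21.6 CPM at 2 h, 21.9 and 20.6 CPM at 6 h and 19.3 and 16.1 CPM at 24 h. Each depleted library lay above both DMSO libraries, with log2 changes of 2.71 ± 0.26 (SE), 2.78 ± 0.26 and 2.51 ± 0.26. Gm13778 had 4.86 and 3.05 CPM in DMSO, 17.1 and 21.2 CPM at 2 h, 15.2 and 16.9 CPM at 6 h and 19.9 and 14.6 CPM at 24 h. Its log2 changes were 2.29 ± 0.28, 2.04 ± 0.28 and 2.14 ± 0.28, again a plateau from 2 h. Ttc41 went from 7.65 and 5.26 CPM in DMSO to 26.5 and 25.9 CPM at 2 h, 33.8 and 32.1 CPM at 6 h and 27.6 and 31.3 CPM at 24 h. Its log2 changes of 2.03 ± 0.20 at 2 h and 2.36 ± 0.20 at 6 h, and a level of 29.5 ± 2.6 CPM (SD, n = 2) at 24 h, followed the same course. Adtrp, the fourth bound gene, was spread between replicates and stepped up more slowly. It had 10.0 and 3.73 CPM in DMSO, 14.8 and 12.6 CPM at 2 h, 21.9 and 21.9 CPM at 6 h and 56.5 and 21.4 CPM at 24 h, with log2 changes of 1.02 ± 0.51, 1.70 ± 0.51 and 2.52 ± 0.52.

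The 4 genes without a promoter peak overlapped control at 2 h. At 6 h both libraries of Trim66, Ubap1l and B4galnt2 lay above both DMSO libraries by a small margin. Without the replicate as a block, none of these 3 passed the threshold given below at 6 h. The distance from DMSO was widest at 24 h. Trim66 had 2.90 and 2.44 CPM in DMSO, 2.63 and 3.37 CPM at 2 h, 3.66 and 4.88 CPM at 6 h and 18.9 and 17.6 CPM at 24 h. The 2 h libraries overlapped the DMSO libraries, and the log2 changes were 0.18 ± 0.28, 0.68 ± 0.27 and 2.77 ± 0.26. B4galnt2 had 7.76 and 5.56 CPM in DMSO, 11.0 and 6.93 CPM at 2 h, 10.8 and 8.93 CPM at 6 h and 27.3 and 23.4 CPM at 24 h. Ubap1l, the gene with the highest level among the 8 at 24 h both in CPM and per length, had 20.5 and 11.4 CPM in DMSO, 23.6 and 18.7 CPM at 2 h, 26.3 and 22.9 CPM at 6 h and 57.3 and 40.1 CPM at 24 h. The log2 changes of B4galnt2 were 0.43 ± 0.28, 0.58 ± 0.28 and 1.94 ± 0.28, and those of Ubap1l 0.42 ± 0.29, 0.63 ± 0.29 and 1.62 ± 0.29. Dyrk4 was barely transcribed, with 2.28 and 2.13 CPM in DMSO, 3.19 and 1.93 CPM at 2 h, 1.87 and 2.31 CPM at 6 h and 4.43 and 3.57 CPM at 24 h. Its log2 change at 24 h was 0.85 ± 0.34.

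**Figure D1:**
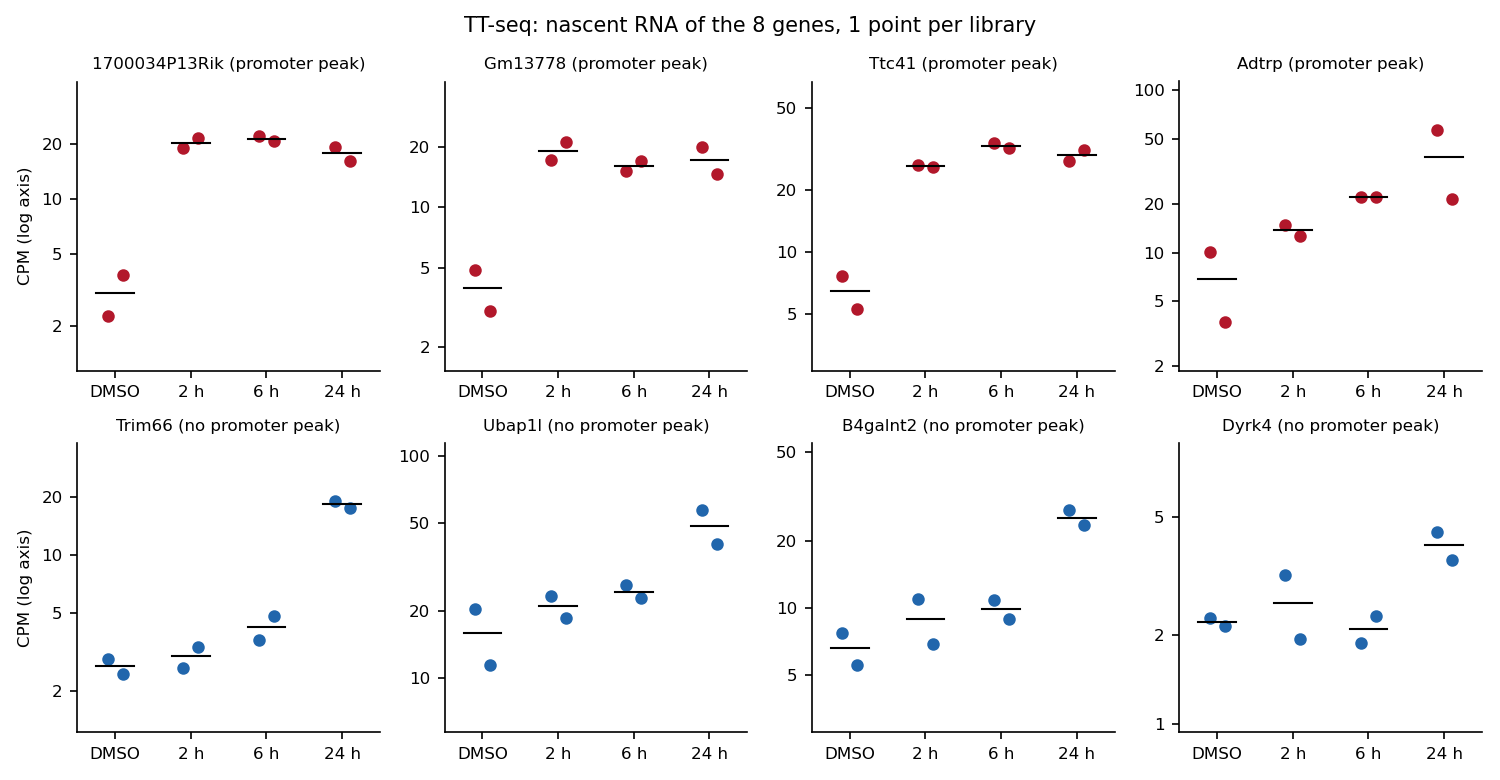
TT-seq level in CPM (log axis, 1 scale per gene) of the 8 genes in DMSO and with dTAG-V1 for 2, 6 or 24 h. Each point is 1 library and each line the mean of 2. In red, 1700034P13Rik, Gm13778 and Ttc41 are high from 2 h on and Adtrp steps up, and in blue Trim66, Ubap1l and B4galnt2 lie slightly above DMSO at 6 h and farther above it at 24 h, with Dyrk4 least changed.

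Genes were called where the log2 change exceeded 0.5 in size at an adjusted p below 0.05. By this rule 3 of the 8 genes were called higher at 2 h, where 0.168% of the 17870 tested genes were called higher and 2.43% lower. At 6 h it was the same 3, 1700034P13Rik, Gm13778 and Ttc41, against 0.397% higher and 2.83% lower, and at 24 h 7 of 8, against 2.02% higher and 4.09% lower, with Dyrk4 below the threshold. These counts follow from how the genes were listed, and nothing is read from them. The difference in timing can also be in part a product of the listing, since the genes were listed on changes at these same times. With the replicate as a block, more genes of all kinds were called. At 2 h it was the same 3, against 0.487% of all genes higher and 3.7% lower, at 6 h 5, with Adtrp and Ubap1l in addition, against 2.01% higher and 5.35% lower, and at 24 h the same 7, against 5.65% higher and 6.79% lower. At 24 h the calls of Adtrp and Ubap1l were lost without DMSO replicate 2 (log2 change 1.97 and 1.26) or without 24 h replicate 1 (1.67 and 1.34), and the call of Gm13778 at 6 h was lost without 6 h replicate 2 (1.96).

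Promoter peaks stood in the same relation to time among all genes called higher. Of the 30 genes called higher at 2 h, 23 had a promoter peak (76.7%), of the 71 at 6 h 23 (32.4%), and of the 361 at 24 h 26 (7.20%), where 12.3% of all tested genes had one. With the replicate as a block it was 41 of 87 (47.1%), 51 of 359 (14.2%) and 59 of 1009 (5.85%). In both fits the share was greatest at 2 h and below that of all tested genes at 24 h, and the split of the 8 genes is nothing particular to them.

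**Figure D2:**
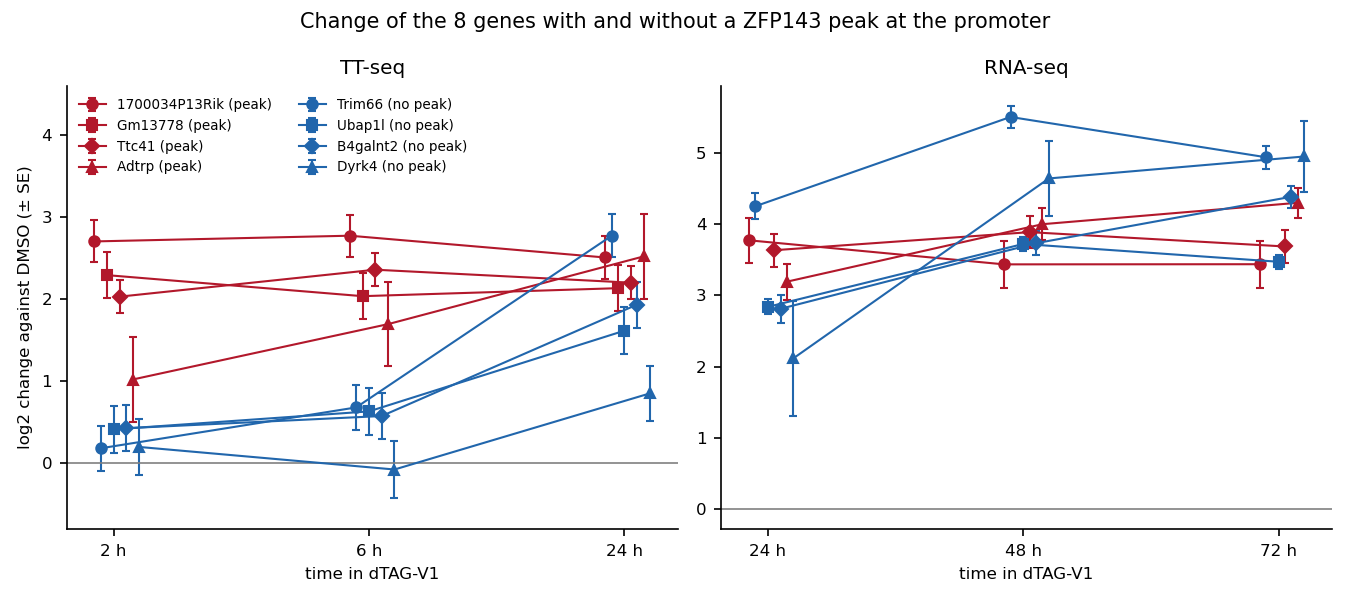
Log2 change against DMSO (points, with bars of 1 SE) of the genes with a promoter peak (red) and without one (blue), in TT-seq (2, 6 or 24 h) and RNA-seq (24, 48 or 72 h). In TT-seq at 2 h the 4 red genes lie between 1.02 and 2.71 and the 4 blue genes between 0.18 and 0.43, and from 24 h of TT-seq on the colours mix.

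The steps between time points compare depleted cells with each other and were tested, although they share libraries with the comparisons used for listing. Between 6 and 24 h of TT-seq, Trim66 went from 4.27 ± 0.86 to 18.2 ± 0.95 CPM (log2 change 2.09 ± 0.25, adjusted p 0.0710 in edgeR), B4galnt2 changed by 1.36 ± 0.27 (0.161) and Ubap1l by 0.98 ± 0.28 (0.298), and none of the 8 passed. The percentage of all genes called was 0 in each direction. From shared deviations in the counts, the TT-seq replicate numbers were taken to pair the libraries. With the replicate as a block in edgeR these 3 genes were called higher, with adjusted p of 0.00916 for Trim66, 0.0148 for B4galnt2 and 0.0271 for Ubap1l. In that fit 0.526% of all genes were called higher and 0.694% lower. DESeq2 called Trim66 (7.20e-06) and B4galnt2 (0.00439), with 59 higher and 90 lower, and 1922 genes had an unadjusted p under 0.05 in edgeR. The bound genes 1700034P13Rik, Gm13778 and Ttc41 changed over this step by -0.27 ± 0.22, 0.10 ± 0.25 and -0.16 ± 0.18, with adjusted p of 0.721, 0.922 and 0.804. Between 2 and 6 h no gene was called by edgeR, of any kind, with 269 at an unadjusted p under 0.05 and 2 called lower by DESeq2. Over that step the largest change of the 8 was that of Adtrp, at 0.67 ± 0.48.

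At 3 of the bound promoters the peak was shared with a protein-coding gene on the other strand, and the partner was not called higher in depleted cells in either assay of the time courses. 1700034P13Rik shares its peak with Vcpip1 (minus strand, 735 bp of overlap), which encodes a deubiquitinase that works with VCP in the reassembly of the Golgi. Vcpip1 fell in RNA-seq from 75.4 and 74.4 CPM in DMSO to 29.2 and 30.2 CPM at 24 h, by 1.33 on the log2 scale (adjusted p 4.03e-10, edgeR with glmTreat), and was at -1.19 at 48 h (6.34e-09) and -0.62 at 72 h (0.323). In TT-seq it changed by -0.52 at 2 h (adjusted p 0.107), -0.28 at 6 h (0.315) and -0.60 at 24 h, which passed (0.0366). In the RA table Vcpip1 had 68.3 and 62.0 CPM in DMSO and 31.1 and 30.0 CPM in dTAG before RA, where it was lower (-1.10, 4.15e-05). After RA it had 41.6 and 36.8 CPM in DMSO and 33.0 and 36.9 CPM in dTAG, a difference of -0.17 (adjusted p 1) between libraries that overlapped, and in DMSO cells it changed by -0.73 over RA (0.0408), not called. The strand setting of the RNA-seq counts is not given, so how reads of the 735 bp that both genes cover were counted is not known. In the other pairs the partner was not called in depleted cells. Psmc3, an ATPase subunit of the proteasome whose start lies 76 bp from that of Gm13778, changed by -0.16, -0.32 and -0.29 in TT-seq (adjusted p 0.704, 0.248 and 0.236). Hsp90b1, the chaperone GRP94 of the endoplasmic reticulum, starts 302 bp from Ttc41 and changed by -0.06, 0.44 and -0.68 (0.936, 0.280 and 0.0792). Neither passed in RNA-seq at any time, where Psmc3 lay between -0.20 and -0.14 and Hsp90b1 between -0.10 and 0.19.

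**Figure D3:**
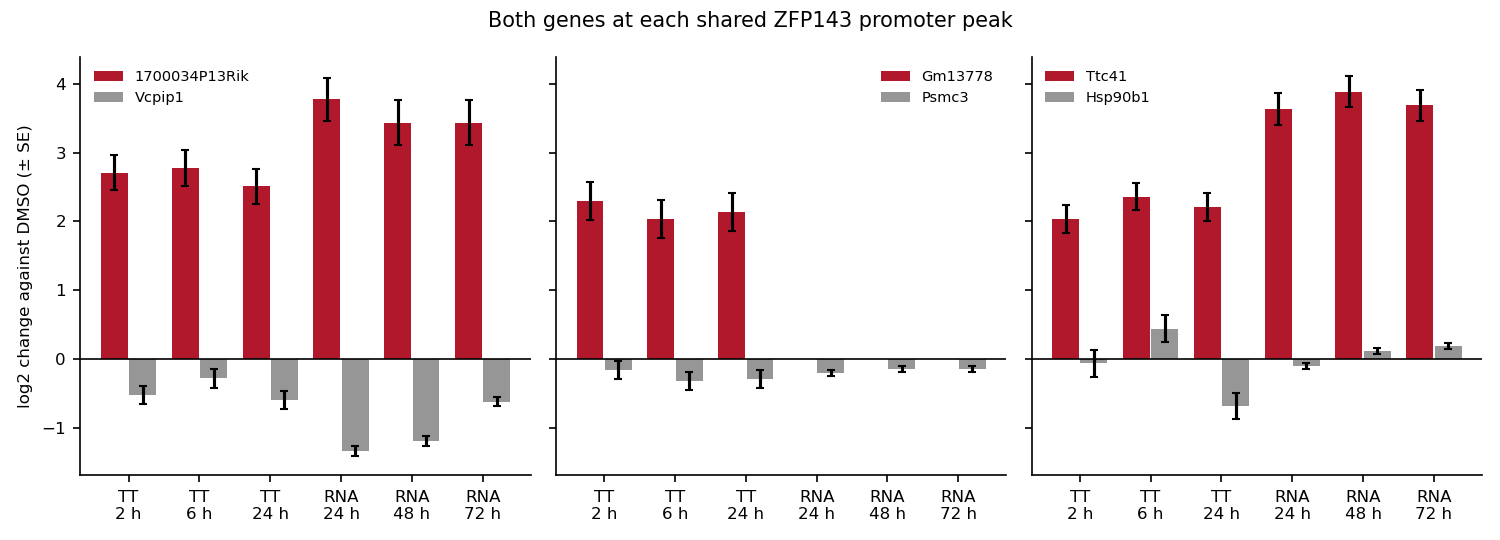
Log2 change against DMSO (bars from 0, error bars 1 SE) of 1700034P13Rik, Gm13778 and Ttc41 (red) and of the coding gene at the same ZFP143 peak (grey), in 3 TT-seq and 3 RNA-seq comparisons. Gm13778 was not tested in RNA-seq, and of the partners Vcpip1 and Psmc3 are below 0 in each comparison, Vcpip1 down to -1.33 at 24 h of RNA-seq and Psmc3 no lower than -0.32.

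Few other neighbours were called. Of the 15 tested genes that overlapped a bound gene of the list or started within 50 kb of it, none was called at 2 or 6 h of TT-seq and 1, Vcpip1, at 24 h. Next to the 4 unbound genes it was 0 of 14 at 2 and 6 h and 1 of 14 at 24 h, the small nucleolar RNA Snora3 near Trim66 (-0.82, adjusted p 0.0366). Both calls at 24 h were lower, as were 4.09% of all genes, so counts of this size lie near the background. The genes that lie upstream on the strand of a listed gene were Rad51ap1 (Dyrk4), Pdcd7 and Gm39363 (Ubap1l), Mir3063 (B4galnt2), Slc39a13 (Gm13778), St5 (Trim66) and 1810014B01Rik (Ttc41), and none was called in any comparison. At 24 h of TT-seq Rad51ap1 changed by -0.02 (adjusted p 0.945) and Pdcd7 by -0.05 (0.904). Gm49358, which shares 12873 bp with Ttc41 on its strand, changed by -0.26 (0.334). Gm17875, a pseudogene within Ubap1l on its strand, changed by 1.11 (0.158) and shares reads with it. In later RNA-seq, Spi1 near Gm13778 was higher at 72 h (2.81, adjusted p 2.26e-06), as were Gm15344 near Ttc41 (1.61, 0.00380) and D6Wsu163e near Dyrk4 (0.91, 0.00144), while Rpl27a near Trim66 was lower (-0.78, 8.56e-05). These were 3 higher and 1 lower of 20 neighbours tested, where 13.7% of all genes were called higher and 12% lower.

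In stable mRNA 7 of the 8 genes could be tested in the time course, and all were low in DMSO. Gm13778 had 3 counts in each DMSO library and 4 to 11 counts in the 6 depleted libraries, too few to be tested, though its nascent transcript was plain in TT-seq. Trim66 had 1.10 and 1.28 CPM in DMSO, 22.9 and 23.3 CPM at 24 h, 51.2 and 59.2 CPM at 48 h and 38.2 and 36.4 CPM at 72 h. That is the widest change of the 7 at 24 and 48 h, with log2 changes of 4.25 ± 0.18 and 5.50 ± 0.15. Ubap1l had 7.26 and 6.13 CPM in DMSO, 49.1 and 45.6 CPM at 24 h, 89.4 and 85.6 CPM at 48 h and 73.4 and 73.8 CPM at 72 h. It was the most abundant of the 7 per length, at 37.8 and 36.2 CPM per kb of exon at 48 h. B4galnt2 stood higher at each later time, with 1.47 and 1.92 CPM in DMSO, 11.9 and 12.4 CPM at 24 h, 21.8 and 24.4 CPM at 48 h and 37.8 and 34.9 CPM at 72 h. Dyrk4 had 0 and 4 counts in DMSO and 7 and 10 counts at 24 h. At 48 h it had 64 and 37 counts, or 5.12 and 3.29 CPM, and at 72 h 6.11 and 4.57 CPM. It was thus the last of the 7 tested genes to appear.

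Of the bound genes, 1700034P13Rik and Ttc41 stood near their later RNA level by 24 h, and Adtrp did not. 1700034P13Rik had 0.643 and 0.356 CPM in DMSO, 6.86 and 6.57 CPM at 24 h, 5.12 and 5.52 CPM at 48 h and 5.92 and 4.84 CPM at 72 h. Ttc41 had 0.643 and 1.50 CPM in DMSO, 14.4 and 13.7 CPM at 24 h, 16.3 and 17.2 CPM at 48 h and 12.5 and 16.2 CPM at 72 h. For both, the 3 depleted groups lay in a narrow band far above DMSO. Adtrp had 1.19 and 0.784 CPM in DMSO, 10.2 and 7.48 CPM at 24 h, 15.0 and 16.1 CPM at 48 h and 19.4 and 19.0 CPM at 72 h. In its slower course it was again closer to the unbound genes. With glmTreat against a fold of 1.5 and an adjusted p under 0.01, 6 of 7 were called higher at 24 h, where 2.32% of 13925 tested genes were, and 3.41% lower. All 7 were called at 48 h (10.5% higher and 7.71% lower) and at 72 h (13.7% higher and 12% lower). The exception at 24 h was Dyrk4, at 2.12 ± 0.81.

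**Figure D4:**
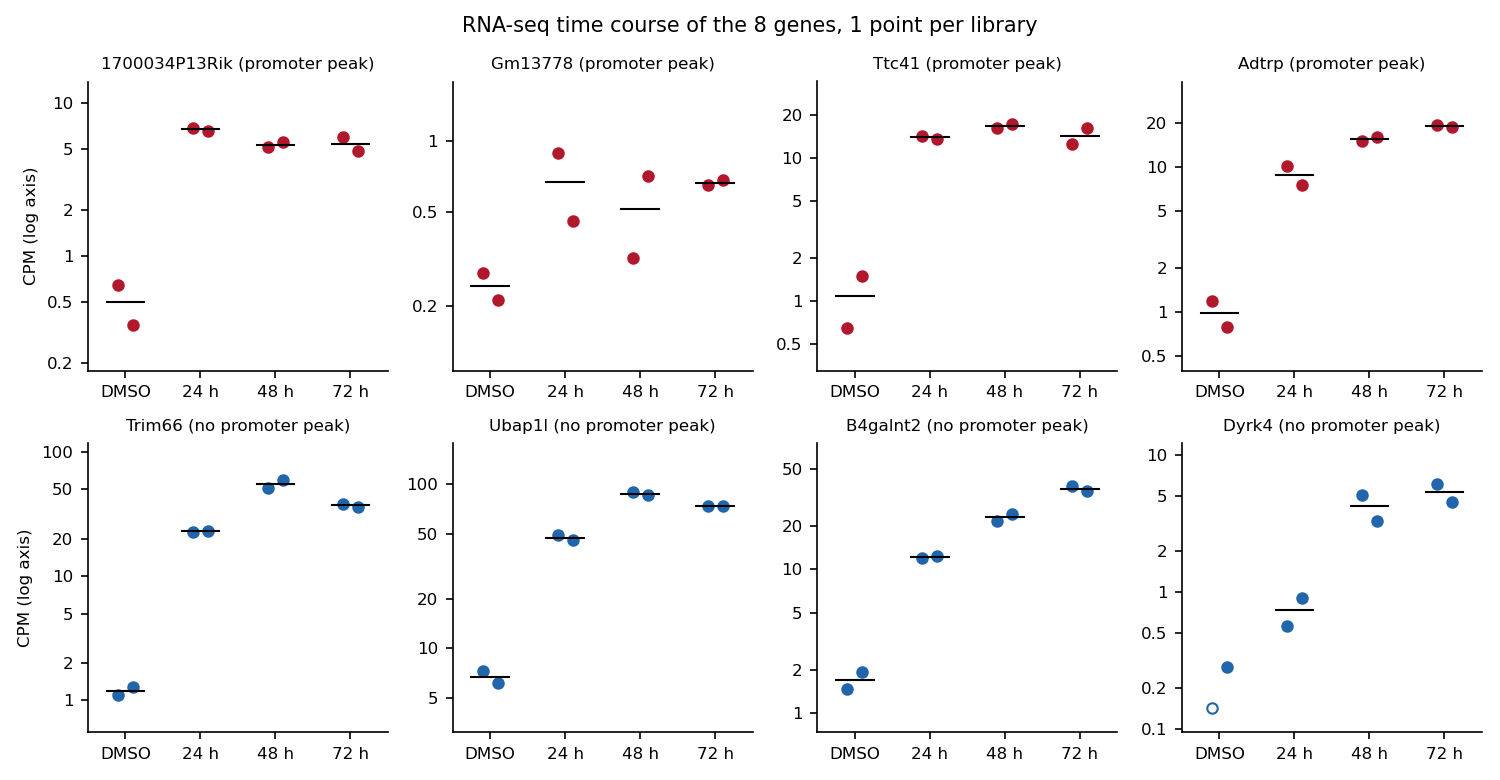
RNA-seq level in CPM (log axis, 1 scale per gene) of the 8 genes in DMSO and with dTAG-V1 for 24, 48 or 72 h, 1 point per library and a line at the mean of 2. An open point, with no mean drawn, marks a library with 0 counts, placed below the lowest value. Trim66 and Ubap1l are highest at 48 h, B4galnt2 at 72 h, and Dyrk4 is near 0 until 48 h.

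Between 24 and 48 h, 3 of the 7 genes rose further, all without a promoter peak, where 2.32% of tested genes were called higher and 0.912% lower. Trim66 rose by 1.25 ± 0.09 on the log2 scale (adjusted p 2.21e-07, edgeR with glmTreat), Dyrk4 by 2.53 ± 0.39 (2.40e-04) and Ubap1l by 0.88 ± 0.07 (5.79e-04). B4galnt2 changed by 0.92 ± 0.11, which missed the threshold of 0.01 (0.0185). The bound genes gave 0.81 ± 0.14 for Adtrp (0.253), 0.25 ± 0.14 for Ttc41 (adjusted p 1) and -0.34 ± 0.19 for 1700034P13Rik (1). The call of Trim66 held in DESeq2 and without any 1 library, while Ubap1l and Dyrk4 were lost in DESeq2 (0.0887 and 0.0131). Ubap1l was also lost without 24 h replicate 2 (0.0220) or 48 h replicate 1 (0.0158), and Dyrk4 without 24 h replicate 1 (0.0229) or 48 h replicate 1 (0.0168). Whether the step differed between bound and unbound genes was not tested. Between 48 and 72 h none of the 7 was called, where 0.862% of genes were called higher and 0.847% lower, and the values ran from -0.57 ± 0.08 for Trim66 to 0.65 ± 0.09 for B4galnt2. At an unadjusted p under 0.05, 7056 of all genes changed over that step, and DESeq2 called 28 higher and 36 lower.

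Markers of other cells moved over the same course, in which 10.5% of all tested genes were called higher and 7.71% lower at 48 h. The 4 primitive endoderm markers Gata4, Gata6, Sox17 and Pdgfra, none at 0, had a summed level of 6.06 to 6.49 CPM in DMSO, 10.0 to 11.0 CPM at 24 h and 14.9 to 16.1 CPM at 48 h, with 3 of 3 tested called higher at 48 h. The 7 stem cell markers went from 5380 to 5496 CPM in DMSO down to 3902 to 3987 CPM at 48 h, with Nanog (-1.35) and Sox2 (-0.85) called lower. The 5 markers of 2-cell-like cells stayed under 2.60 CPM in sum, from 0.641 to 0.918 CPM in DMSO to 1.87 to 2.48 CPM at 48 h, where 1 of 1 tested was called, and Tcstv1 was at 0 in both libraries at 24 and at 72 h. The 4 fibroblast markers went from 2.48 to 2.78 CPM, with Col1a2 and Col3a1 at 0, to 4.96 to 5.52 CPM at 48 h, where Col1a1 was called higher of 2 tested. Of the 4 neural progenitor markers 3 were tested, with Sox1 called higher (2.44) and Nes and Tubb3 lower (-1.20 and -1.37) at 48 h. The part of such cells in the levels of the 8 genes was not tested, and in bulk RNA more cells of a type and more RNA per cell cannot be told apart.

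Before RA, after 24 h of depletion, the RA table gave the 7 tested genes a second time. Trim66 had 1.21 and 1.26 CPM in DMSO and 13.6 and 17.9 CPM in dTAG, Ttc41 0.840 and 1.32 CPM and 14.5 and 15.1 CPM, Ubap1l 3.25 and 4.64 CPM and 28.3 and 29.1 CPM, and B4galnt2 1.36 and 1.32 CPM and 10.8 and 11.6 CPM. 1700034P13Rik had 0.315 and 0.401 CPM and 5.71 and 5.14 CPM. Adtrp, lower in this table than in the time course, had 0.157 and 0.229 CPM and 1.35 and 1.59 CPM. Dyrk4 rested on 2 and 0 counts in DMSO against 11 and 23 in dTAG, a ratio of 14.0 with a counting interval of 3.59 to 120. No depleted library overlapped a DMSO library in any of the 7. The genes were listed on such changes, so nothing is read from this separation. All 7 were called higher, against 2.74% of 15915 genes higher and 3.66% lower, and after RA again all 7, against 9.1% higher and 7.36% lower. The call of Dyrk4 before RA was lost without DMSO replicate 2 (log2 change 2.79) or dTAG replicate 2 (3.24), and that of Adtrp after RA without DMSO RA replicate 2 (1.38) or dTAG RA replicate 2 (1.41).

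Most of the 7 genes rose after RA in cells that had ZFP143. The comparisons over RA in DMSO and in dTAG cells were tested, although they share libraries with the comparisons used for listing. In DMSO cells, Trim66 went to 9.72 and 7.98 CPM after RA, B4galnt2 to 5.70 and 6.41 CPM, Ubap1l to 13.4 and 10.2 CPM, Ttc41 to 2.69 and 2.66 CPM, Adtrp to 1.24 and 1.02 CPM, and Dyrk4 to 0.530 and 0.409 CPM, on 12 and 6 counts. All 6 were called higher, with log2 changes of 2.86 ± 0.22 (adjusted p 2.05e-09), 2.16 ± 0.21 (1.26e-07), 1.61 ± 0.17 (1.53e-06), 1.32 ± 0.26 (0.00284), 2.54 ± 0.49 (3.82e-04) and 3.00 ± 0.88 (0.00753) in that order. As many as 25.8% of the 15915 genes were called higher and 18.1% lower with RA, so a call here is common. The ratio for Dyrk4 had a counting interval of 2.11 to 78.3. 1700034P13Rik stayed at 0.442 and 0.478 CPM (0.35 ± 0.51, adjusted p 0.838). Ttc41 lost its call without DMSO replicate 1 (0.0560) or DMSO RA replicate 1 (0.0128). Dyrk4 lost it without DMSO replicate 2 (0.0742) or either DMSO RA replicate (0.0550 and 0.0104). In DESeq2 the call of Adtrp (0.0127) was lost with those of Ttc41 (0.0486) and Dyrk4 (0.0580).

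In 6 of the 7 tested genes the level in that table was highest with depletion and RA together, and 1700034P13Rik was the exception. Gm13778, not tested, had 0.718 ± 0.29 CPM there and 0.626 ± 0.30 CPM in dTAG before RA, with overlapping libraries. Trim66 reached 60.8 and 60.6 CPM in dTAG after RA, Ubap1l 66.5 and 69.4 CPM, Ttc41 29.0 and 30.7 CPM, B4galnt2 23.0 and 22.9 CPM, Dyrk4 9.52 and 11.6 CPM and Adtrp 3.01 and 3.45 CPM. In each of these 6 the DMSO cells after RA stayed below the depleted cells before RA. 1700034P13Rik had 4.66 and 4.19 CPM. It thus differed with depletion, while its change after RA did not pass. In dTAG cells 5 of the 7 rose from 24 h of depletion to 48 h with RA (25% of all genes were called higher and 18.5% lower): Dyrk4 by 3.78 ± 0.26 (adjusted p 1.66e-10), Trim66 by 1.94 ± 0.12 (1.25e-10), Ubap1l by 1.24 ± 0.11 (1.27e-06), B4galnt2 by 1.03 ± 0.12 (3.01e-04) and Ttc41 by 1.01 ± 0.11 (3.51e-04). Adtrp, at 1.12 ± 0.25, missed the threshold (0.0121), and 1700034P13Rik changed by -0.29 ± 0.19 (adjusted p 1). Adtrp was called with the size factors of DESeq2 (0.00856) or with library size alone (3.56e-04), while DESeq2 itself lost Ttc41 (0.0106) and B4galnt2 (0.0116). Without RA, the step from 24 to 48 h of depletion in the time course was 2.53 for Dyrk4, 1.25 for Trim66, 0.92 for B4galnt2, 0.88 for Ubap1l and 0.25 for Ttc41. Taken as the log2 change after RA in depleted cells less that in control cells, the difference was -1.42 ± 0.59 (SE) for Adtrp, -1.12 ± 0.25 for B4galnt2, -0.92 ± 0.27 for Trim66, -0.64 ± 0.54 for 1700034P13Rik, -0.37 ± 0.20 for Ubap1l, -0.31 ± 0.29 for Ttc41 and 0.78 ± 1.23 for Dyrk4. These differences use the comparisons that listed the genes and were not tested, and they include the further day of depletion.

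**Figure D5:**
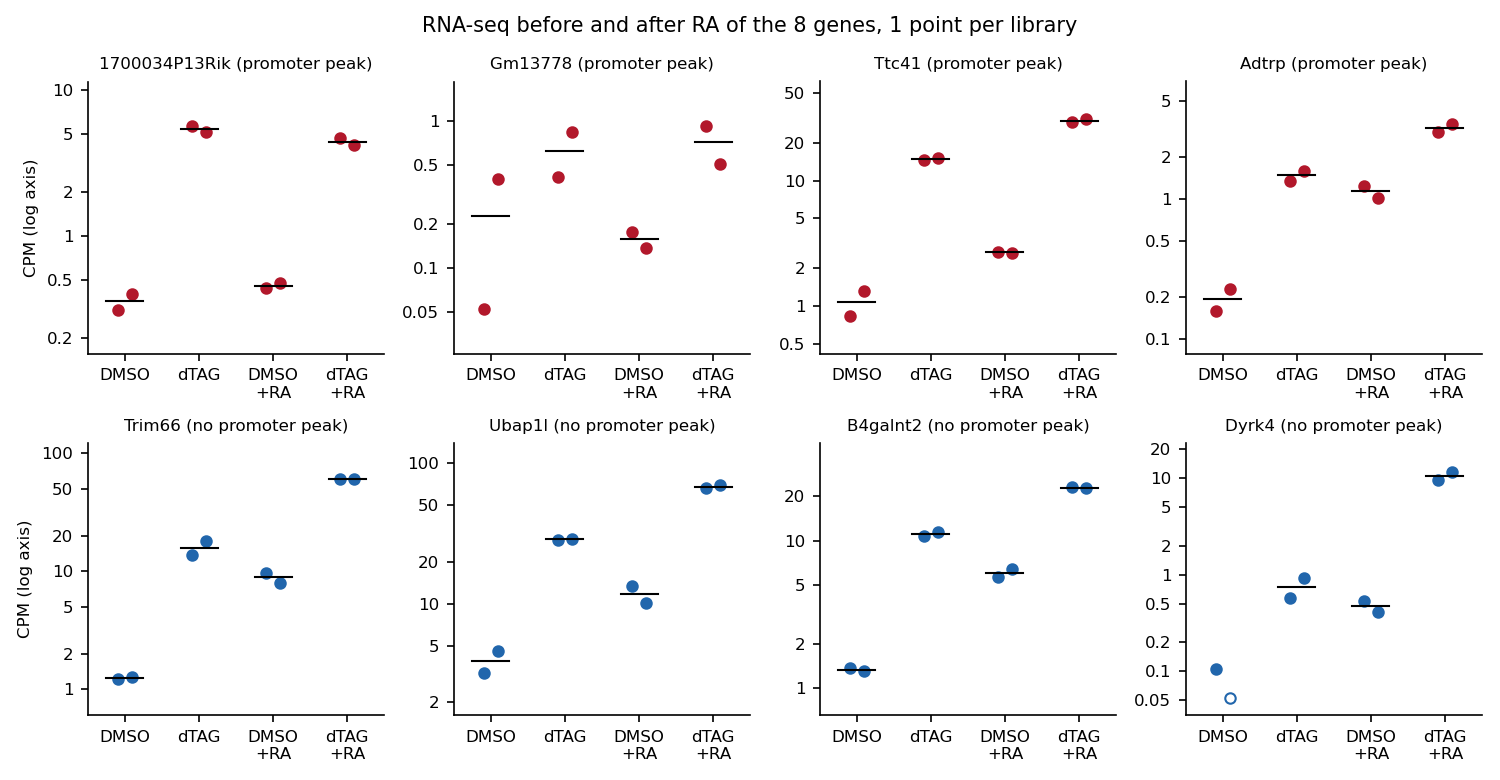
RNA-seq level in CPM (log axis, 1 scale per gene) of the 8 genes in DMSO and dTAG, before and after RA, 1 point per library and a line at the mean of 2. An open point, with no mean drawn, marks a library with 0 counts, placed below the lowest value. 1700034P13Rik is high in dTAG with and without RA, and Trim66, Ubap1l, B4galnt2, Ttc41, Adtrp and Dyrk4 are higher in dTAG than in DMSO and higher after RA than before it.

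Cell type markers moved with RA too, where 25.8% of all genes were called higher and 18.1% lower in DMSO cells and 25% and 18.5% in dTAG cells. The stem cell markers fell in sum from 6348 to 6523 CPM to 675 to 1003 CPM in DMSO cells, and from 5481 to 5508 CPM to 1291 to 1514 CPM in dTAG cells, with 7 of 7 called lower in each. Primitive endoderm markers went from 4.09 to 4.99 CPM to 25.6 to 27.6 CPM in DMSO cells and from 7.53 to 9.81 CPM to 48.6 to 51.6 CPM in dTAG cells, with 4 of 4 called higher in each. The 2-cell-like markers went from 1.49 to 3.04 CPM, with Tcstv1 at 0, to 42.2 to 42.3 CPM and from 6.38 to 6.49 CPM to 154 to 183 CPM, with 4 of 4 tested called higher in each. Fibroblast markers went from 3.10 to 4.24 CPM to 6.54 to 10.3 CPM in DMSO cells, with Col3a1 at 0 and 2 of 3 tested called higher, and from 3.90 to 4.11 CPM to 25.9 to 26.2 CPM in dTAG cells, with 3 of 3 called higher. Neural progenitor markers went from 241 to 256 CPM to 108 to 124 CPM in DMSO cells, with 2 of 4 called higher and 2 lower, and from 138 to 140 CPM to 50.4 to 52.9 CPM in dTAG cells, with 1 higher and 2 lower. The part of these cell types in the changes after RA was not tested.

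Relatives of the 8 genes were called in no TT-seq comparison, and some were called in RNA-seq. Of all genes, 10.5% were called higher and 7.71% lower at 48 h of RNA-seq, and 13.7% and 12% at 72 h. Between dTAG and DMSO cells after RA it was 9.1% and 7.36%. Over RA it was 25.8% and 18.1% in DMSO cells, and 25% and 18.5% in dTAG cells. The TIF1 genes Trim24, Trim28 and Trim33 gave 0 of 3 called in each comparison of depleted with control cells, where Trim66 stood at up to 5.50. Of the kinases related to Dyrk4, Dyrk1b alone was called higher in depleted cells, at 72 h (1.24, adjusted p 2.39e-05, edgeR). After RA Dyrk2 rose in DMSO cells (0.97), and Dyrk3 fell in DMSO (-1.97) and dTAG cells (-1.15). Of the B4galnt2 relatives, none was called higher in depleted cells, B4galnt3 was lower at 72 h (-0.81) and B4galnt1 lower after RA (-1.22). After RA B4galnt1 rose in DMSO (2.33) and dTAG cells (1.01), and B4galnt3 and B4galnt4 fell in both. Of 9 ESCRT-I genes, 0 were called in TT-seq, and at 72 h of RNA-seq Vps37b (0.96) and Vps37c (0.88) were higher and Vps37d (-1.51) lower, where 13.7% of all genes were called higher and 12% lower. Aig1, the relative of Adtrp, was called higher at 48 and 72 h of the RNA-seq time course. It was at 0.43, 0.74 and 1.08 in TT-seq, not called, at 0.93 at 24 h of RNA-seq (0.0226), not called, and rose at 48 h (1.58, adjusted p 1.00e-08) and 72 h (1.79, 7.77e-11). Between dTAG and DMSO cells Aig1 was not called before RA (1.00) or after RA (0.26). Over RA it was called higher in DMSO cells (1.98) and in dTAG cells (1.24). Unlike Trim66, Trim28, the corepressor that silences retroelements, fell after RA in both DMSO (-1.75, 4.42e-13) and dTAG cells (-1.69, 9.49e-13).

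Since Trim66, Ttc41 and Dyrk4 are known from testis, 18 germline genes were counted. In TT-seq 0 of 11 tested were called at 2 and 6 h and 3 of 11 at 24 h, where 2.02% of genes were called higher: Mov10l1 (1.86, adjusted p 0.0153), Stk31 (1.15, 0.0336) and Hormad1 (0.91, 0.0175). Their median log2 change at 24 h was 0.91, against 0.01 over all tested genes. In RNA-seq 0 of 13 were called at 24 h, where their median was 0.22, and at 48 h 3 of 13 were called higher, against 10.5%, with Taf7l (2.05), the meiotic translation factor Dazl (1.36) and Hormad1 (0.96), and at 72 h 3 were higher and 2, Rpl10l and Tuba3a, lower, against 13.7% and 12%. Before RA 3 of 18 were called higher, against 2.74%, and after RA 9 of 18, against 9.1%, among them Sycp3 (2.09), a part of the meiotic chromosome axis, and Taf7l (2.04). After RA 15 of 18 were called higher than before it in DMSO cells and 16 of 18 in dTAG cells, against 25.8% and 25% of all genes.

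The genes with the most similar course, by Pearson's r of log2 CPM over 24 libraries with each table centred on its mean, differed between early and late genes. These r describe 12811 genes tested in all tables and carry no test, since the libraries share treatments. For 1700034P13Rik the closest was Zfp143 itself (r = 0.972), then Rabl3 (0.957) and Ubxn8 (0.956). For Ttc41 they were Saysd1 (0.948), 1700034P13Rik (0.940) and 2610306M01Rik (0.937). The unbound genes Trim66, Ubap1l and B4galnt2 were closest to each other. Trim66 was nearest to Ubap1l (0.976), B4galnt2 (0.970) and Cebpb (0.958), and Ubap1l to Trim66, B4galnt2 (0.971) and L3mbtl1 (0.956). B4galnt2 had Ubap1l, Trim66 and Zfp612 (0.965). Adtrp, though bound, was nearest to Slc1a4 (0.968), Ubap1l (0.952) and B4galnt2 (0.951). Dyrk4 stood apart, with Kidins220 (0.969), Dzip1 (0.954) and Ece1 (0.946).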

How the data were processed

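TT-seq and RNA-seq were measured in 24 libraries of mESCs, 8 per table in 4 groups of 2. The deposited tables hold raw counts. The authors aligned reads by STAR (build mm10, GENCODE vM25). TT-seq reads were freed of duplicates, split by strand and assigned to whole genes by htseq-count, and RNA-seq reads were counted by STAR itself, whose strand setting is not given in the sources used here. In TT-seq reads in overlapping genes of 1 strand count for each. The ZFP143 peak list deposited by the authors gives for each MACS2 peak its ratio to input (fold enrichment) with −log10 q-values. The CTCF list pools DMSO and dTAG cells. Both give 1 list without replicates. 4C files were not used here.

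Tested were genes that exceeded 10 counts in 4 or more of 8 libraries (17870, 13925 and 15915 genes) in edgeR 4.0.16 with TMM scaling, all 4 groups in 1 fit per table, and p-values were adjusted after Benjamini and Hochberg over all tested genes. TT-seq calls took the quasi-likelihood test at an adjusted p under 0.05 with an absolute log2 change above 0.5, and RNA-seq calls glmTreat against a fold of 1.5 at 0.01. DESeq2 1.42.0, other scalings, no filter, the replicate block and leaving out each library were alternatives. Replicate numbers shared by the groups of TT-seq went with shared deviations (r = 0.193 to 0.631 over 6 pairs of groups), and these numbers were taken to pair the libraries. Intervals cover counting error only. CPM used TMM-scaled totals of tested genes.

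Positions, names and types came from GENCODE vM21 of the same build and the sequences from the GRCm38 genome. The peak sequence of 1 bound gene is not reported here. A promoter peak overlapped 2000 bp upstream to 1000 bp downstream of a transcript start with its centre within 2000 bp. Genes named beside the 8 are those sharing their nearest peak, called or same-strand neighbours within 50 kb, called members of the family, germline and marker lists, and the 3 most similar genes. The 8 genes, the lists and the tests were chosen with earlier results of these data known.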

Additional observations from a re-analysis of the deposited data

How the results depend on the processing

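The split into 4 genes with a promoter peak and 4 without was the same with a window of 500 bp on either side of a start, with the peak centre within 5000 bp, with peaks of at least 10-fold enrichment and with the outer start of each gene. Counts of the 8 genes called higher moved as follows. With the replicate as a block, they were 5 in place of 3 at 6 h of TT-seq and 3 in place of 0 from 6 to 24 h. The block changed no other count of calls, and in RNA-seq 3 were called from 24 to 48 h with or without it. RNA-seq replicate numbers were not taken to pair the libraries (r = -0.042 to 0.062 in the time course, -0.099 to 0.125 in the RA table). With DESeq2 the counts were 2 in place of 0 from 6 to 24 h of TT-seq, 1 in place of 3 from 24 to 48 h of RNA-seq, 3 in place of 6 for RA in DMSO and 3 in place of 5 for RA in dTAG. Without a filter, 4 were called from 6 to 24 h. With the thresholds of the other assay there were 3 in place of 7 at 24 h of TT-seq, 5 in place of 3 from 24 to 48 h of RNA-seq, and 1 higher and 1 lower in place of 0 from 48 to 72 h. Without 1 library, 1 to 3 were called from 24 to 48 h of RNA-seq, the lowest without 48 h replicate 1, 5 to 7 at 24 h of TT-seq, 6 to 7 before and after RA, and 4 to 5 for RA in DMSO, 6 with all libraries. DESeq2 called 5 before RA, without Adtrp and Dyrk4, and 6 after RA, without Adtrp. The causes were not tested. No called change of the 8 genes reversed under these alternatives. With library size alone the median log2 change of all genes was 0.15 to 0.39 in the comparisons of RNA-seq with DMSO or of RA, against 0.0018 to 0.065 with TMM, and no listed gene lost a call under it. Depth limited Gm13778 in RNA-seq, and Dyrk4, which had 0 to 4 counts in the DMSO libraries of RNA-seq before RA.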
